A study of Mus musculus with 90 samples.

Results

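The DNA replication and S-phase genes examined here are a list of 41 mouse genes that encode the machinery for copying the genome, the enzymes that supply its building blocks, and the regulators that start S phase. The list was set by gene symbol, and each gene was read through its brightest probe set among those the platform annotation gives to that symbol alone. Of the 41 genes, 40 were measured, out of 17097 genes in all, and Chaf1a was not analysed here. Lung mRNA was measured on Affymetrix HT MG-430 PM arrays.

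Before a cell copies its DNA, the origin recognition complex with Cdc6 and Cdt1 loads the ring-shaped Mcm2 to Mcm7 helicase onto origins. Cyclin E with its kinase and the E2F transcription factors then drive entry into S phase, when Cdc45 and the GINS complex switch the helicase on and the polymerases start. Most cells of the adult lung are at rest, and transcripts of these genes are commonly read as a sign of cells in cycle, for example during the repair of injured airway epithelium.

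The mice were adult males on the C57BL/6 background in 3 strains. Wild-type mice (WT) were compared with a Cyp2f2 knockout (KO) and with a transgenic strain (TG) on the same knockout, so both KO and TG mice lack Cyp2f2, a cytochrome P450 of club cells in the airway that oxidises styrene. The TG mice carry human cytochrome P450 genes that the labels write as 2F1, SA13 and 2B6 (CYP2F1, CYP2A13 and CYP2B6), and the promoter that drives them was not stated. Mice of each strain inhaled styrene at 40 ppm, at 120 ppm or not at all (air, 0 ppm) for 6 h a day, 5 days a week, over 1 or 4 weeks. Whole lungs were collected the next morning. The 18 groups held 5 animals each, with 1 array per animal, and each exposed group was compared with the air group of its own strain and week. The 40 and 120 ppm groups share that air group, so their changes are not independent of each other.

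Values are log2 expression per probe set, and a change is the difference of group means on that scale with the SE of a limma fit to all 90 arrays. A gene is said to have risen or fallen where the Benjamini-Hochberg adjusted p over all 17097 genes was under 0.05. In unexposed lungs, Cyp2f2 was lower in KO than in WT by a log2 difference of -1.41 (SE 0.06, limma adjusted p = 7.4e-31) and in TG by -1.39 (SE 0.06). Its mean in unexposed WT lungs was 13.27, so its probe set still gave a strong signal in KO and TG lungs. These values alone do not show that the transcript was absent. The lists of alveolar type 2, club and endothelial cell markers had means of 10.75 ± 0.11, 10.65 ± 0.14 and 9.98 ± 0.10 in the WT air group of 1 week (SD, n = 5), well above the array medians of 4.42 to 4.86. A group mean under 4.42 is called dim below. Of the 40 genes, 13 were dim in the WT air group of 1 week, 6 at 40 ppm and 5 at 120 ppm, and 9 to 13 in each of the other 15 groups. A fold change from a dim level can understate the change in mRNA. For 4 arrays limma gave a weight below 0.25. At 1 week these were WT animal 3 at 120 ppm, KO control animal 3 and TG control animal 5. The other was KO animal 1 at 40 ppm and 4 weeks. In whole lung, fewer or more cells of a type and less or more RNA per cell cannot be told apart.

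Most of the genes rose in WT lungs after 1 week of styrene, and in the other exposed groups no gene passed. The mean over the 40 genes was 5.57 ± 0.09 (SD, n = 5) in the WT air group. At 40 ppm it was 6.33 ± 0.10 and at 120 ppm 6.51 ± 0.70, while the means of the other 15 groups lay between 5.55 and 5.75. The 5 animals of the WT air group lay between 5.42 and 5.66. The animals at 40 ppm stood at 6.24, 6.22, 6.41, 6.32 and 6.46, all above every control. Those at 120 ppm stood at 6.69, 6.72, 5.63, 6.03 and 7.46, so that animal 3 fell within the controls and animal 5 was the highest of all.

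**Figure D1:**
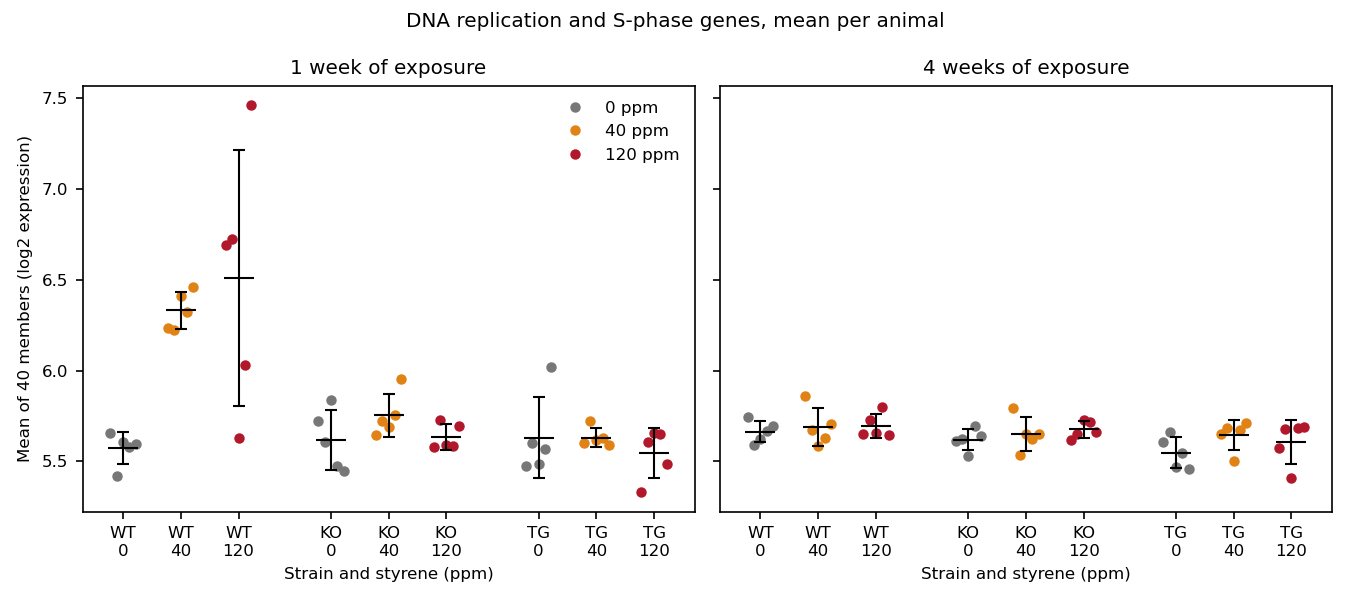
Mean log2 expression of the 40 genes in each animal (points) by strain and styrene concentration in ppm, with the group mean and SD (bars, n = 5), after 1 week (left) and 4 weeks (right). The WT animals at 40 ppm and 4 of the 5 at 120 ppm lie above the WT air group at 1 week, while the means of the 15 other groups lie between 5.55 and 5.75.

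At 40 ppm and 1 week, 30 of the 40 genes rose in WT lungs and 0 fell, against 4.67% of all genes that changed either way, 3.82% that rose and 0.854% that fell. The median change of the 40 was 0.74, and that of all genes 0.03. The changes ran from -0.01 for E2f1 to 1.83 for Tk1, and 31 genes had all 5 exposed animals above all 5 controls, which 5.66% of all genes had. At 120 ppm, 35 of the 40 rose and 0 fell, against 6.79% of all genes that changed, 3.94% that rose and 2.85% that fell, with a median of 0.93. In all, 30 genes rose at both concentrations, while E2f1, Orc1, Pold1, Rpa2 and Tipin passed at neither. The 120 ppm calls rest on the spread pooled over the 18 groups. A fit of the WT air and 120 ppm arrays of that week alone called 0 of the 40, with the smallest adjusted p at 0.086 (limma), and the same fit without animal 3 at 120 ppm called 28. The shares of all genes called in these fits are not given here. The call count at 40 ppm ran from 24 (without control animal 2) to 31 when each animal was left out in turn, and that at 120 ppm from 31 (without animal 5) to 38 (without animal 3).

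**Figure D2:**
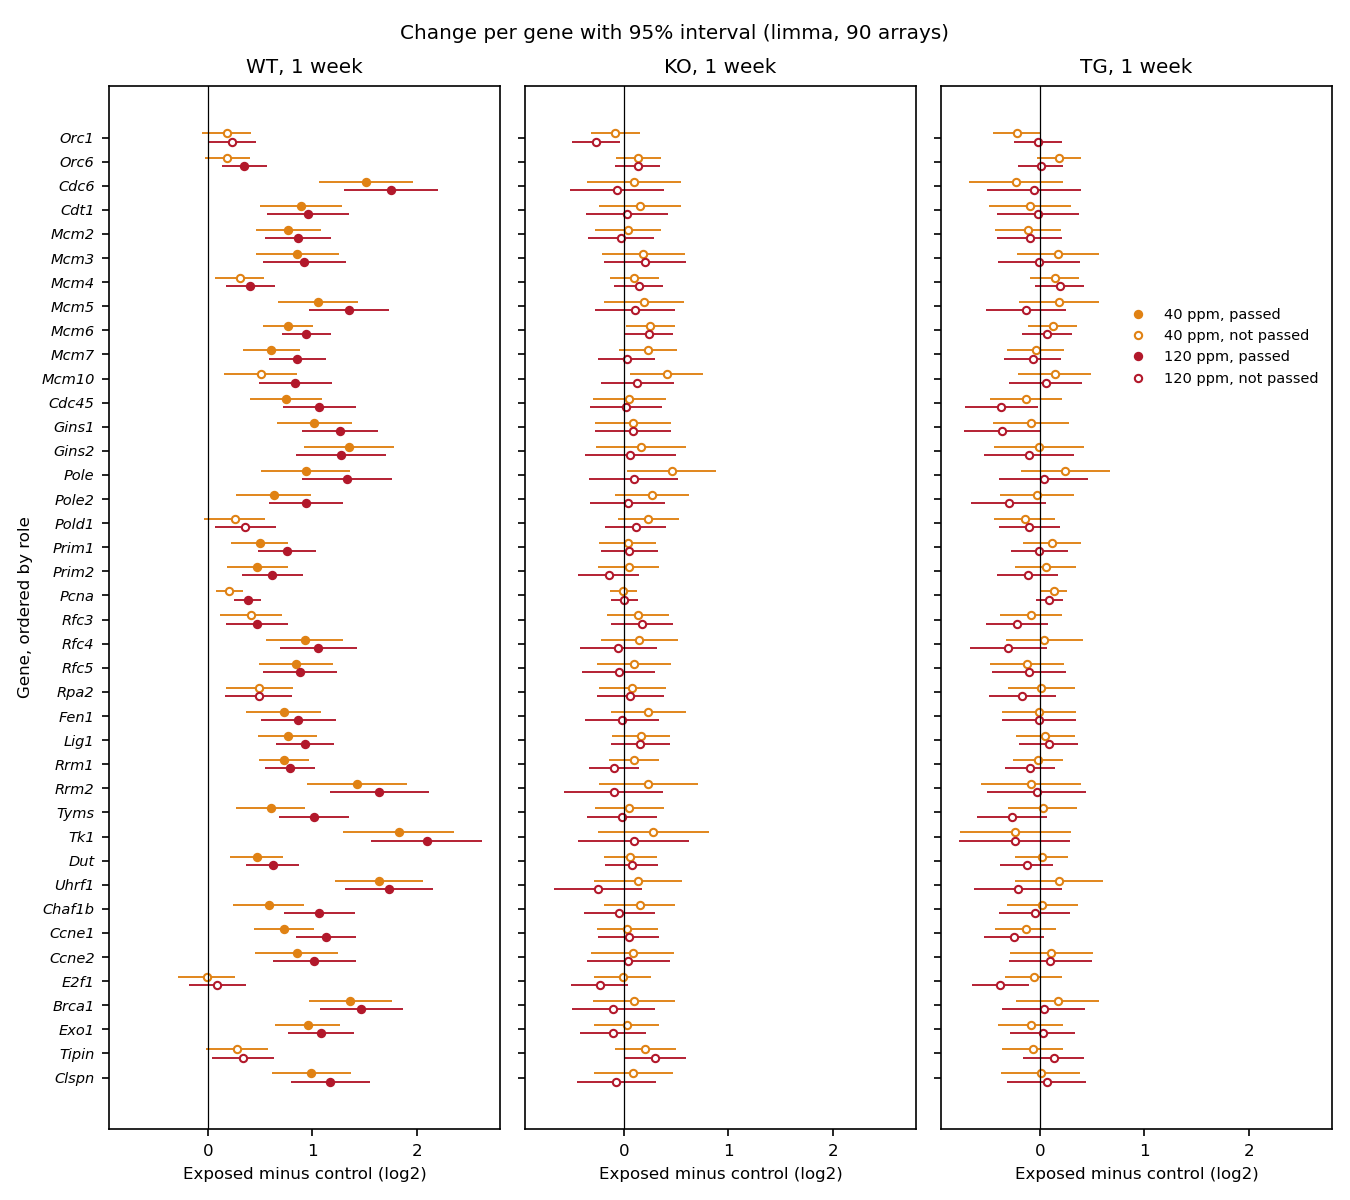
Change from the air group in each of the 40 genes at 1 week (log2, points) with its 95% interval (lines), at 40 and 120 ppm in WT, KO and TG lungs, with filled points for an adjusted p under 0.05. In WT lungs 30 genes passed at 40 ppm and 35 at 120 ppm, and in KO and TG lungs 0 passed. The intervals use the spread pooled over the 18 groups.

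Of the 10 genes for origin licensing, 7 rose at 40 ppm and 9 at 120 ppm. Cdc6, which with Cdt1 brings the Mcm helicase to origins, measured 4.42, 3.67, 4.44, 4.41 and 4.35 in the WT controls. It was at 5.74, 5.26, 5.82, 5.93 and 6.09 at 40 ppm and at 6.34, 6.37, 5.19, 4.91 and 7.27 at 120 ppm. All 10 exposed animals lay above all controls, and the control mean was dim. Cdc6 rose 2.85-fold after 40 ppm (log2 change 1.51, SE 0.23, limma adjusted p = 1.0e-06). After 120 ppm it rose 3.38-fold (1.76, adjusted p = 1.9e-08). Mcm5, a subunit of the helicase ring, measured 5.28, 4.89, 5.08, 4.46 and 4.66 in controls, 5.78, 6.03, 6.00, 5.93 and 5.90 at 40 ppm, and 6.35, 6.61, 5.30, 5.49 and 7.38 at 120 ppm. Its groups did not overlap either, although animal 3 at 120 ppm stood only just above the highest control. Mcm5 rose 2.08-fold (1.06, SE 0.19, adjusted p = 7.1e-05) and 2.56-fold (1.35, SE 0.19, adjusted p = 2.9e-07). In the probe sets used, the other ring subunits moved less. Mcm2, Mcm3, Mcm6 and Mcm7 rose 1.52-fold to 1.81-fold at 40 ppm and 1.81-fold to 1.92-fold at 120 ppm. The other probe set of Mcm2 changed by 1.06 and 1.15, and differences between genes were not tested. Mcm4 passed only at 120 ppm (1.32-fold, adjusted p = 0.022), with 0.30 and an adjusted p of 0.14 at 40 ppm. Of the origin recognition complex, Orc6 passed only at 120 ppm (1.27-fold, adjusted p = 0.033), and Orc1 measured changes of 0.18 and 0.23 that did not pass.

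The E2F factors that drive these genes bind a short GC-rich motif, so the stretch before the start of transcription was searched. Windows from 250 bases before to 50 bases after the start came from RefSeq (mouse GRCm38.p6), and 32 of the 40 genes had a window. The letters TTTCCCGC, TTTGGCGC, TTTCGCGC or TTTGCCGC were found on either strand in 13 of the 32 (40.6%), against 511 of 13514 genes with a window (3.78%). A gene counts as matched if any of its windows holds a match: 13 of the 37 windows of these genes did, against 540 of 16953 (3.19%). Matches to these letters can overlap each other. Cdc6 and Uhrf1 are printed as the pair with the largest 120 ppm changes among genes with a match, and Tk1 as the largest without a match. Each is the 250 bases before the start, 5′ to 3′ on the gene's strand, with the match in capitals.
Cdc6, chr11:98907901-98908150, plus strand: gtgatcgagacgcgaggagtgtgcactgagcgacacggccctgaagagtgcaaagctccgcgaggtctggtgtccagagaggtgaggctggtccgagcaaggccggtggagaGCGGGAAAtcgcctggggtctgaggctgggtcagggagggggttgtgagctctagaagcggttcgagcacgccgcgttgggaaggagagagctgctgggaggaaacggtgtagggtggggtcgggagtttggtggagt
Uhrf1, chr17:56304063-56304312, plus strand: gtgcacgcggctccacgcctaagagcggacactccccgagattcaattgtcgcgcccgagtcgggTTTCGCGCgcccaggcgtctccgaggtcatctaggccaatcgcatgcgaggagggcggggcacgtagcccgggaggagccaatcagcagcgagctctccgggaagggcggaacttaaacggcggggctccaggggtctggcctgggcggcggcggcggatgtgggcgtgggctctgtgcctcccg
Tk1, chr11:117826015-117826264, minus strand: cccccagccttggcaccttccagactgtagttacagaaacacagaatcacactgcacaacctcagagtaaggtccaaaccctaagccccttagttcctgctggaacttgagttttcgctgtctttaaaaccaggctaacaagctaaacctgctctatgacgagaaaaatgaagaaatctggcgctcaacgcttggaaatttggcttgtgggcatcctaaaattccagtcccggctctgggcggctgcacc
The Cdc6 match reads TTTCCCGC on the other strand and its first printed base is at position -138 from the start. The Uhrf1 match, TTTCGCGC, begins at position -185. Uhrf1 has a further window, at the outermost start of the gene, that holds 0 matches, and in all 3 genes the start used here is not the outermost one that RefSeq lists. Of the 13 genes with a match 11 rose at 120 ppm (median 0.94), and of the 19 without 17 rose (median 0.86). The CCAAT letters were in 18 of the 32 genes (56.2%, against 42.3% of all) and the cell cycle homology letters TTTGAA in 3 (9.38%, against 15.7%). A match to these letters describes the sequence, and binding was not measured.

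Of the 4 genes that switch the helicase on (Mcm10, Cdc45, Gins1 and Gins2), 3 rose at 40 ppm and 4 at 120 ppm. Gins2, a GINS subunit, measured 5.02, 4.51, 5.07, 4.84 and 5.02 in controls, 6.12, 5.96, 6.46, 6.39 and 6.29 at 40 ppm, and 6.62, 6.67, 4.70, 5.51 and 7.32 at 120 ppm. The 40 ppm animals were all higher than controls, whereas at 120 ppm animal 3 lay among the controls. Gins2 rose 2.56-fold (1.35, SE 0.22, limma adjusted p = 5.6e-06) and 2.42-fold (1.28, SE 0.22, adjusted p = 1.6e-05). Its probe set, like those of Mcm2 and Tyms, is of a type that can match related sequences. Gins1 measured 4.34, 4.16, 4.12, 3.92 and 4.10 in controls, where it was dim, 5.15, 4.93, 5.22, 5.06 and 5.37 at 40 ppm, and 5.58, 5.68, 4.36, 4.89 and 6.46 at 120 ppm. All exposed animals were higher than all controls, by a hair for animal 3 at 120 ppm. It rose 2.03-fold (1.02, SE 0.18) and 2.41-fold (1.27, SE 0.18, adjusted p = 3.4e-07). Cdc45, which joins the GINS complex on the helicase, rose 1.68-fold and 2.10-fold. Mcm10 passed only at 120 ppm (1.79-fold, 0.84, SE 0.18, adjusted p = 0.00064), and its median over 3 probe sets changed by -0.13 there.

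Of the 9 genes for polymerases, primase, the sliding clamp and its loader, 6 rose at 40 ppm and 8 at 120 ppm. Pole, the catalytic subunit of the leading-strand polymerase, measured 3.16, 3.57, 3.46, 3.44 and 3.60 in controls, 4.28, 4.03, 4.33, 4.48 and 4.78 at 40 ppm, and 5.05, 5.17, 3.34, 4.01 and 6.32 at 120 ppm. Its means were dim in the air and 40 ppm groups, and only animal 3 at 120 ppm overlapped the controls. It rose 1.91-fold (0.93, SE 0.21, limma adjusted p = 0.0025) and 2.52-fold (1.33, SE 0.21, adjusted p = 5.1e-06). Rfc4, a subunit of the loader that opens the clamp, measured 6.90, 6.43, 6.81, 6.66 and 6.93 in controls, 7.69, 7.49, 7.94, 7.61 and 7.64 at 40 ppm, and 8.17, 8.13, 6.85, 7.03 and 8.82 at 120 ppm. Here too the 40 ppm group stood clear of the controls and animal 3 at 120 ppm did not. Rfc4 rose 1.90-fold (0.93, SE 0.19) and 2.08-fold (1.05, SE 0.19, adjusted p = 3.2e-05). Pcna, the clamp itself, moved little, from 10.87 ± 0.06 (SD, n = 5) in controls to 11.08 ± 0.09 at 40 ppm and 11.25 ± 0.21 at 120 ppm. Its change of 0.20 had an adjusted p of 0.052 at 40 ppm, and the 1.30-fold rise at 120 ppm passed (adjusted p = 2.1e-05). Pold1, the catalytic subunit of the lagging-strand polymerase, changed by 0.25 and 0.36 and passed at neither concentration. The primase genes Prim1 and Prim2 rose 1.41-fold and 1.39-fold at 40 ppm and 1.69-fold and 1.53-fold at 120 ppm.

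Lagging-strand synthesis leaves Okazaki fragments, which the flap endonuclease Fen1 trims and the ligase Lig1 joins, and both genes rose at both concentrations. Lig1 measured 6.57, 6.31, 6.41, 6.37 and 6.34 in controls, 7.00, 7.01, 7.28, 7.32 and 7.21 at 40 ppm, and 7.50, 7.44, 6.46, 6.93 and 8.31 at 120 ppm. Fen1 measured 6.10, 5.98, 6.01, 6.16 and 6.18 in controls, 6.79, 6.85, 7.01, 6.74 and 6.68 at 40 ppm, and 7.11, 7.30, 5.71, 6.55 and 8.09 at 120 ppm. In both genes the 40 ppm animals stood above all controls and animal 3 at 120 ppm did not. Lig1 rose 1.70-fold (0.76, SE 0.14) and 1.90-fold (0.93, SE 0.14, limma adjusted p = 1.3e-06), and Fen1 1.65-fold (0.73, SE 0.18) and 1.82-fold (0.86, SE 0.18, adjusted p = 0.00055). Rpa2, a subunit of the protein that coats single-stranded DNA, changed by 0.49 (adjusted p = 0.063) and 0.48 (adjusted p = 0.052).

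All 5 genes of deoxynucleotide supply rose at both concentrations. Tk1, the S-phase thymidine kinase, measured 4.66, 3.56, 3.98, 4.01 and 3.83 in controls, where it was dim, 5.76, 5.67, 5.97, 5.75 and 6.03 at 40 ppm, and 6.48, 6.65, 4.49, 5.20 and 7.69 at 120 ppm. Only animal 3 at 120 ppm overlapped the controls. Tk1 had the largest change of the 40 genes at both concentrations, 3.55-fold (1.83, SE 0.27, limma adjusted p = 6.6e-07) and 4.27-fold (2.09, SE 0.27, adjusted p = 1.8e-08). Rrm2, the small subunit of ribonucleotide reductase that limits the enzyme in S phase, measured 4.12, 4.14, 4.44, 4.48 and 4.34 in controls, also dim, 5.75, 5.24, 6.37, 5.65 and 5.63 at 40 ppm, and 6.39, 6.29, 4.18, 5.06 and 7.80 at 120 ppm. The groups again overlapped only through animal 3 at 120 ppm. Rrm2 rose 2.69-fold (1.43, SE 0.24) and 3.12-fold (1.64, SE 0.24, adjusted p = 4.5e-07). The large subunit Rrm1, which cells keep through more of the cycle, rose 1.66-fold and 1.73-fold. Tyms, which makes thymidylate, rose 1.52-fold and 2.02-fold, and Dut, which removes dUTP, 1.38-fold and 1.53-fold.

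New DNA is packed into chromatin and its methylation is copied. Uhrf1, which brings the maintenance methyltransferase to freshly copied DNA, measured 5.04, 4.70, 5.13, 5.10 and 5.04 in controls, 6.33, 6.39, 6.94, 6.66 and 6.89 at 40 ppm, and 7.10, 7.27, 5.12, 6.13 and 8.04 at 120 ppm. Animal 3 at 120 ppm again lay among the controls, and all other exposed animals lay above them. Uhrf1 rose 3.12-fold (1.64, SE 0.21, limma adjusted p = 3.5e-08) and 3.32-fold (1.73, SE 0.21, adjusted p = 6.6e-09), the smallest adjusted p of the 40 genes at each concentration. Chaf1b, a subunit of the chromatin assembly factor that travels with Pcna, measured 4.28, 4.03, 4.07, 3.81 and 3.71 in controls, 4.38, 4.52, 4.46, 4.70 and 4.75 at 40 ppm, and 5.06, 5.37, 4.69, 4.39 and 5.73 at 120 ppm. All exposed animals were higher than all controls, whose mean was dim, with a narrow gap at 40 ppm. Chaf1b rose 1.50-fold (0.58, SE 0.17, adjusted p = 0.028) and 2.10-fold (1.07, SE 0.17, adjusted p = 4.2e-06).

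Among the genes for S-phase entry, both E cyclins rose and E2f1 did not pass. Ccne1 measured 3.27, 3.43, 3.13, 3.19 and 3.25 in controls, 3.71, 4.12, 4.39, 3.88 and 3.80 at 40 ppm, and 4.45, 4.28, 4.28, 3.65 and 5.28 at 120 ppm. Ccne2 measured 2.83, 3.14, 3.18, 3.44 and 2.83 in controls, 3.98, 3.30, 3.73, 3.70 and 4.96 at 40 ppm, and 4.72, 3.79, 3.23, 3.57 and 5.19 at 120 ppm. Ccne1 kept its exposed animals above its controls while Ccne2 had an overlap of 1 animal at each concentration, and both were dim in all 3 groups. Ccne1 rose 1.66-fold (0.73, SE 0.15, limma adjusted p = 0.00033) and 2.19-fold (1.13, SE 0.15, adjusted p = 1.9e-08), and Ccne2 1.80-fold (0.85, SE 0.20) and 2.02-fold (1.02, SE 0.20, adjusted p = 0.00025). E2f1, a transcription factor of the entry program, stood at 5.38 ± 0.17 (SD, n = 5) in controls, 5.37 ± 0.19 at 40 ppm and 5.47 ± 0.55 at 120 ppm. The 95% intervals of its change were -0.29 to 0.26 and -0.19 to 0.36. Its other probe set, with a mean of 5.05 over all arrays against 5.35 for the one used, changed by 0.27 and 0.25.

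Of the 4 genes for repair and fork protection, Brca1, Exo1 and Clspn rose at both concentrations and Tipin, which holds the fork together, at neither. Brca1, which acts in homologous recombination, measured 3.12, 3.48, 3.47, 4.08 and 3.61 in controls, 4.80, 4.64, 5.00, 4.96 and 5.17 at 40 ppm, and 5.42, 4.99, 4.08, 4.30 and 6.30 at 120 ppm. Control animal 4 and animal 3 at 120 ppm met at 4.08, and the control mean was dim. It rose 2.57-fold (1.36, SE 0.20, limma adjusted p = 6.6e-07) and 2.77-fold (1.47, SE 0.20, adjusted p = 8.4e-08). This rests on the brightest of 4 probe sets, and the median over them changed by -0.08 at 40 ppm. Clspn, which passes the stalled-fork signal to the kinase Chek1, measured 2.99, 2.92, 3.23, 3.27 and 3.28 in controls, 3.81, 4.14, 4.23, 4.09 and 4.36 at 40 ppm, and 4.67, 4.12, 2.99, 3.97 and 5.79 at 120 ppm. It was dim in all 3 groups, and only animal 3 at 120 ppm overlapped the controls. Clspn rose 1.98-fold (0.99, SE 0.19) and 2.25-fold (1.17, SE 0.19, adjusted p = 6.1e-06). The other probe set of Clspn, with a mean of 3.31 over all arrays against 3.35 for the one used, changed by -0.04 and 0.35. Exo1, an exonuclease of mismatch repair and resection, rose 1.94-fold and 2.12-fold. Its other probe sets changed less, by 0.29 and 0.13 at 40 ppm and by 0.48 and 0.07 at 120 ppm.

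The 5 WT animals at 120 ppm differed from each other in most of the genes at once. Animal 5 had the highest value of the group in 40 of 40 genes, against 23.0% of all genes, and animal 3 the lowest in 36, against 55.9% of all genes. Relative to the control mean, the averages over the 40 genes were 1.12, 1.15, 0.06, 0.46 and 1.89 for animals 1 to 5. Counted against all 5 controls, 39, 37, 9, 35 and 40 of the genes were higher in these animals, where 19.1%, 37.6%, 11.5%, 20.3% and 32% of all genes were. At 40 ppm, 35 to 37 genes were higher in each animal, against 18.2% to 27.8% of all genes. Only 9 genes thus had groups that did not overlap at 120 ppm, against 1.33% of all genes. The median SD over the 40 genes was 0.74 at 120 ppm, 0.16 at 40 ppm and 0.17 in controls, and over all genes 0.24 at 120 ppm. The SD at 120 ppm exceeded that of controls in 39 of the 40, with a median ratio of 3.76 against 1.38 over all genes. Animal 3 also had the lowest array median of the series (4.42) and an array weight of 0.135, and the part of array quality in its low values was not tested.

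**Figure D3:**
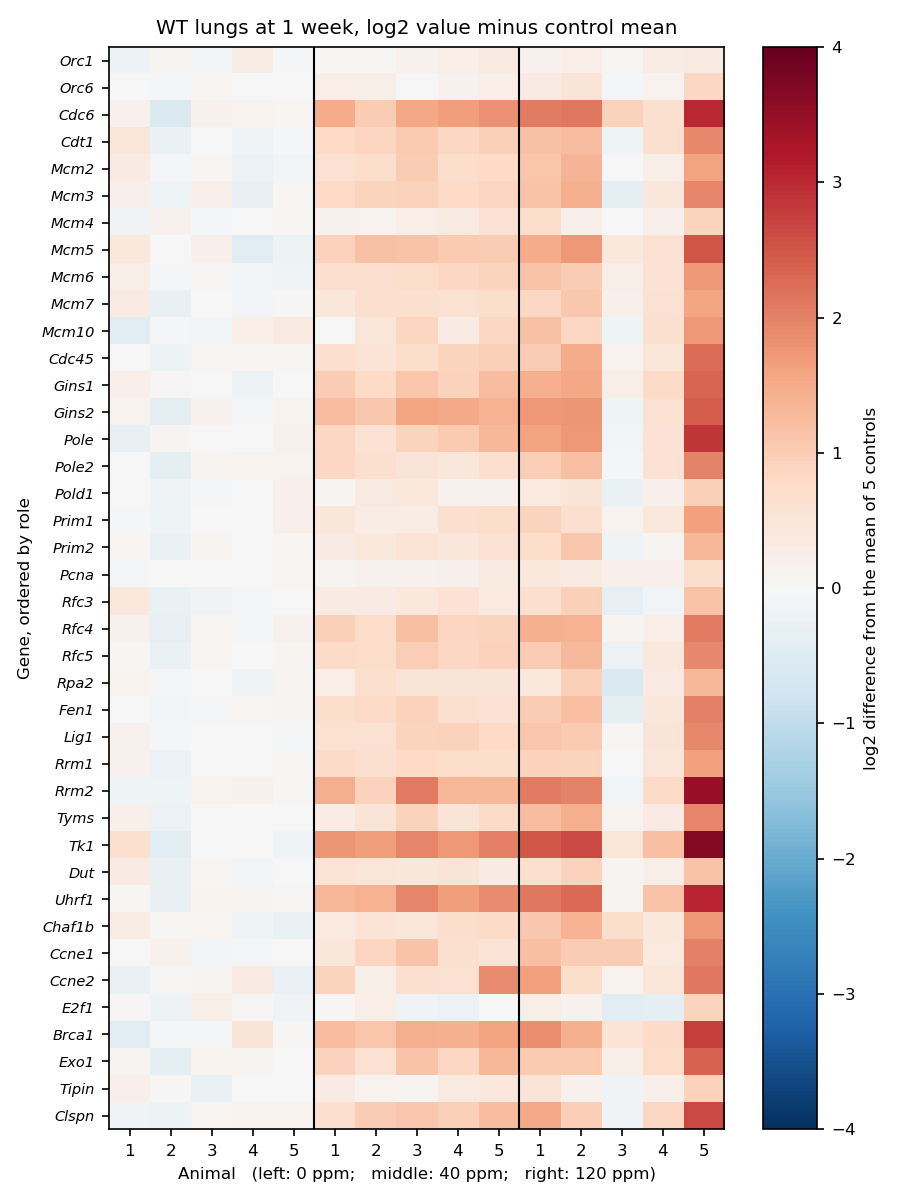
Log2 value of each of the 40 genes minus the mean of the 5 WT controls (colour) in the 15 WT animals of 1 week, with animals 1 to 5 of the 0, 40 and 120 ppm groups from left to right. Animal 5 at 120 ppm is the highest of its group in 40 of 40 genes (23.0% of all genes) and animal 3 the lowest in 36 (55.9%). Each 40 ppm animal has 35 to 37 genes above all controls (18.2% to 27.8% of all genes).

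The 120 ppm mean exceeded the 40 ppm mean in 38 of the 40 genes, by a median of 0.16, against 6160 of all 17097 genes with a median of -0.04. None of these differences passed in limma (0 of 40, 0% of all genes, 4 with an unadjusted p under 0.05). The largest was Chaf1b at 0.49 (95% interval 0.15 to 0.83, adjusted p = 0.87), and Gins2 was lower at 120 ppm by -0.08 (-0.51 to 0.35). For Tk1 it was 0.27 (-0.27 to 0.80) and for Uhrf1 0.09 (-0.33 to 0.51). The order of the concentrations in the mean of the 40 genes depended on animal 5 at 120 ppm. That mean minus control was 0.70 at 120 ppm without animal 5 and 1.15 without animal 3, against 0.76 at 40 ppm.

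Further genes of replication had smaller median changes in WT lungs at 1 week than the listed genes, and genes of mitosis larger ones. These differences between lists were not tested. Over all genes, 3.82% rose at 40 ppm and 3.94% at 120 ppm. Of 34 further replication genes measured, 6 rose at 40 ppm and 8 at 120 ppm (medians 0.24 and 0.29), led by the histone chaperone Asf1b (2.35-fold and 2.48-fold), the cohesin acetyltransferase Esco2 (1.47-fold and 2.25-fold) and the fork adaptor Wdhd1 (1.70-fold and 1.73-fold). Of 18 further genes of nucleotide supply, 4 and 6 rose, among them Dck, which salvages deoxynucleosides (1.54-fold and 1.48-fold), and the thymidylate kinase Dtymk (1.37-fold and 1.40-fold). Of 22 further S-phase regulators, 7 and 8 rose. The S-phase cyclin Ccna2 rose 3.38-fold and 3.87-fold, and the repressor E2Fs rose too, E2f7 by 3.38-fold and 2.62-fold and E2f8 by 1.99-fold and 2.06-fold. Of 17 fork repair genes, 5 and 6 rose, including the uracil glycosylase Ung (2.22-fold and 2.06-fold) and the recombination factor Rad51ap1 (1.92-fold and 2.46-fold). Of 30 mitosis genes, 26 and 28 rose, with medians of 1.23 and 1.46. Their mean was 4.46 ± 0.20 (SD, n = 5) in controls, 5.73 ± 0.23 at 40 ppm and 5.88 ± 0.94 at 120 ppm, where animal 3 had 4.65 and animal 5 had 7.14. The proliferation antigen Mki67 rose 2.49-fold (limma adjusted p = 0.0099) and 2.81-fold (adjusted p = 0.0021). Of 17 cell cycle inhibitors none rose and 2 fell at each concentration, Cdkn1a (p21, by -0.88 and -0.95) and the antiproliferative gene Btg2 (by -0.50 and -0.61), against 0.854% and 2.85% of all genes that fell. Among the exposed groups where none of the 40 genes passed, Cdkn1a fell only in WT lungs at 120 ppm and 4 weeks (-1.26, limma adjusted p = 0.0060). In the others its change ran from -0.96 in TG lungs at 120 ppm and 1 week (adjusted p = 0.23) to 0.28 in KO lungs at 40 ppm and 4 weeks (adjusted p = 0.97). At 1 week its change differed from that in WT lungs by 0.88 and 0.33 in KO at 40 and 120 ppm. In TG it differed by 0.43 and -0.01, and none of these differences passed (limma adjusted p from 0.34 to 0.99). The part of Cdkn1a in the rise of the 40 genes was not tested.

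Markers of cell types that could bring cycling cells into the sample were read beside these genes. In WT lungs at 1 week, 3.82% of all genes rose and 0.854% fell at 40 ppm. At 120 ppm, 3.94% of all genes rose and 2.85% fell. Of 8 thymocyte markers, 7 T cell and 8 B cell markers, 0 passed in WT lungs at either concentration of week 1, and 6 of the thymocyte markers were dim. The thymocyte list had a mean of 3.74 to 3.82 in controls, 3.59 to 3.83 at 40 ppm and 3.65 to 3.89 at 120 ppm. Of 10 myeloid precursor markers 0 passed, with 8 dim. Of 8 neutrophil markers 2 rose at each concentration, Cd177 (8.53-fold and 5.04-fold) and Mmp8 (2.62-fold and 2.12-fold). That list ranged from 5.75 to 6.69 in controls, 6.53 to 6.72 at 40 ppm and 5.49 to 7.51 at 120 ppm. Of 8 alveolar macrophage markers 1 and 3 rose (8.38 to 8.86 in controls, 8.73 to 9.20 and 8.89 to 9.28 when exposed), and of 10 fibroblast markers 2 rose and 1 fell at both. Of 10 endothelial markers 2 fell at 40 ppm, and 5 fell and 1 rose at 120 ppm, where the list ranged from 9.46 to 9.83 against 9.87 to 10.11 in controls. All 5 basal cell markers were dim and 0 passed. Of 8 alveolar type 2 markers 3 rose at 40 ppm and 1 at 120 ppm (list mean 10.75 ± 0.11 in controls, 10.94 ± 0.04 and 10.88 ± 0.12 when exposed, SD, n = 5, with overlap at both), and of 7 alveolar type 1 markers 0 passed at 40 ppm and 1 fell at 120 ppm. Of 6 germinal centre and plasma cell markers 2 fell at 40 ppm and 1 at 120 ppm. That list lay between 7.05 and 7.29 in controls, between 6.65 and 6.84 at 40 ppm, with no overlap, and between 6.58 and 7.12 at 120 ppm. Of 10 club cell markers 1 rose and 1 fell at both concentrations (10.43 to 10.77 in controls, 10.71 to 10.93 and 10.55 to 10.93 when exposed). The marker that fell was Cyp2f2, by -0.33 (limma adjusted p = 0.013) and -0.28 (adjusted p = 0.038). Of 7 ciliated cell markers 0 passed, and of 7 erythroid markers 1 rose at 40 ppm and 0 passed at 120 ppm. The part of these cells in the rise of the replication genes was not tested, and the cell types in which the genes rose were not resolved.

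After 4 weeks no gene of the list passed in WT lungs. The count was 0 of 40 at 40 or 120 ppm (0 with an unadjusted p under 0.05 in limma), against 0.152% and 0.439% of all genes, with medians of 0.05 at both. Tk1 stood at 4.04, 3.90, 3.45, 3.83 and 4.09 at 40 ppm and at 3.89, 4.59, 4.00, 4.31 and 3.69 at 120 ppm, against 4.34, 3.88, 3.87, 4.04 and 4.06 in controls. The 3 groups overlapped, and the 95% interval of its 120 ppm change was -0.48 to 0.59. The change at 4 weeks was lower than that at 1 week in 10 genes at 40 ppm (median difference -0.68, against 0.503% of all genes lower and 0.532% called either way) and in 21 genes at 120 ppm (-0.86, against 0.749% and 0.883%). Tk1 (-2.00 and -2.04), Uhrf1 (-1.53 and -1.81), Cdc6 (-1.36 and -1.59) and Rrm2 (-1.37 and -1.91) were among those called at both. The 40 ppm count was 6 without WT control animal 2 of week 1, without animal 3 of the 40 ppm group of week 1, or without animal 4 of the 40 ppm group of week 4. It was higher in other settings, 23 with array weights, 22 in a fit of only the arrays compared and 18 without the 4 arrays of low weight. The 120 ppm count was 33 with array weights and without those 4 arrays, 32 without animal 3 of the 120 ppm group of week 1 and 0 in a fit of only the arrays compared.

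In KO lungs none of the 40 genes passed at either concentration or time, and the same held in TG lungs. At 1 week the median change was 0.12 and 0.03 in KO lungs at 40 and 120 ppm, and -0.00 and -0.06 in TG lungs. In limma, 3, 2, 1 and 3 of the genes had an unadjusted p under 0.05 in these 4 comparisons, and 0%, 0%, 0% and 0.0468% of all genes passed. At 4 weeks the medians ran from 0.02 to 0.10, and 1 gene in all had an unadjusted p under 0.05, against 0% to 0.0234% of all genes that passed. Tk1 measured 4.07, 4.25, 3.84, 4.08 and 3.89 in KO lungs at 120 ppm and 1 week, against 4.24, 3.95, 3.97, 3.76 and 3.73 in KO controls. In TG lungs it measured 3.66, 4.07, 4.05, 4.46 and 3.44, against 3.56, 4.19, 3.86, 4.05 and 5.25. The value of 5.25 came from TG control animal 5, which had an array weight of 0.155. In both strains the exposed animals overlapped their controls. The 95% interval of the Tk1 change at 120 ppm was -0.44 to 0.63 in KO and -0.78 to 0.29 in TG, against 1.56 to 2.63 in WT lungs. These intervals use the spread pooled over the 18 groups, not the wider spread of the WT animals at 120 ppm. In a fit of only the arrays compared, the WT change of Tk1 had an adjusted p of 0.13 (limma). Over the 40 genes, the largest change in either strain at 1 week was Pole in KO lungs at 40 ppm (0.46, 95% interval 0.03 to 0.88, limma adjusted p = 1.00). KO animal 5 at 40 ppm stood somewhat apart, with 21 of the 40 genes above all its controls (12.5% of all genes), a mean of 5.95 and a mitosis mean of 5.19, against 3 to 9 genes in the other 4 animals of its group.

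The difference between strains in the response was tested directly. At 120 ppm and 1 week the change was lower in KO than in WT lungs in 28 of the 40 genes (median difference -0.90, against 1.76% of all genes lower and 2.37% called either way) and, for TG against WT, in 32 (-0.95, against 3.42% and 4.59%). At 40 ppm the numbers were 8 for KO (-0.57, 1.05% of all genes lower and 1.25% either way) and 17 for TG (-0.70, 1.39% and 1.53%), and 0 genes had a higher change in KO or TG than in WT. In all 40 genes the point estimate lay below 0 in each of these 4 comparisons, against 9467 to 10319 of all 17097 genes. The 4 comparisons share the WT air group, so they are not independent of each other. Tk1 differed by -2.00 (95% interval -2.75 to -1.25, limma adjusted p = 0.00049) in KO and -2.34 (-3.09 to -1.59, adjusted p = 2.1e-05) in TG at 120 ppm. Uhrf1 differed by -1.98 (adjusted p = 7.5e-06) and -1.94 (adjusted p = 8.7e-06), Cdc6 by -1.82 and -1.82, and Rrm2 by -1.74 and -1.67. Uhrf1, Cdc6, Tk1, Gins1, Gins2, Rrm1, Brca1 and Exo1 were the 8 genes that passed at 40 ppm in KO, and the same 8 passed in TG. Orc6, Mcm4, Rpa2, E2f1, Tipin, Pold1, Orc1 and Mcm10 passed in none of the 4. At 4 weeks 0 genes passed for a difference between strains in their change in limma (0 with an unadjusted p under 0.05), against 0.0234% and 0.0175% of all genes for KO and 0.0117% and 0.0292% for TG at 40 and 120 ppm. The KO and WT comparison at 120 ppm depended on single animals and on the spread used, with 13 genes without WT animal 5 at 120 ppm, and 0 in a fit of only the arrays compared. The TG count was 1 in that fit. At 40 ppm the KO count was 3 without WT control animal 2 and 5 without KO control animal 3, without WT animal 3 or 4, or without KO animal 2, and the TG count was 10 without TG control animal 5 and 11 without WT animal 3. Other settings raised the KO count at 40 ppm, to 18 with array weights, 14 in the fit of only the arrays compared and 13 with the poly-A covariate.

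**Figure D4:**
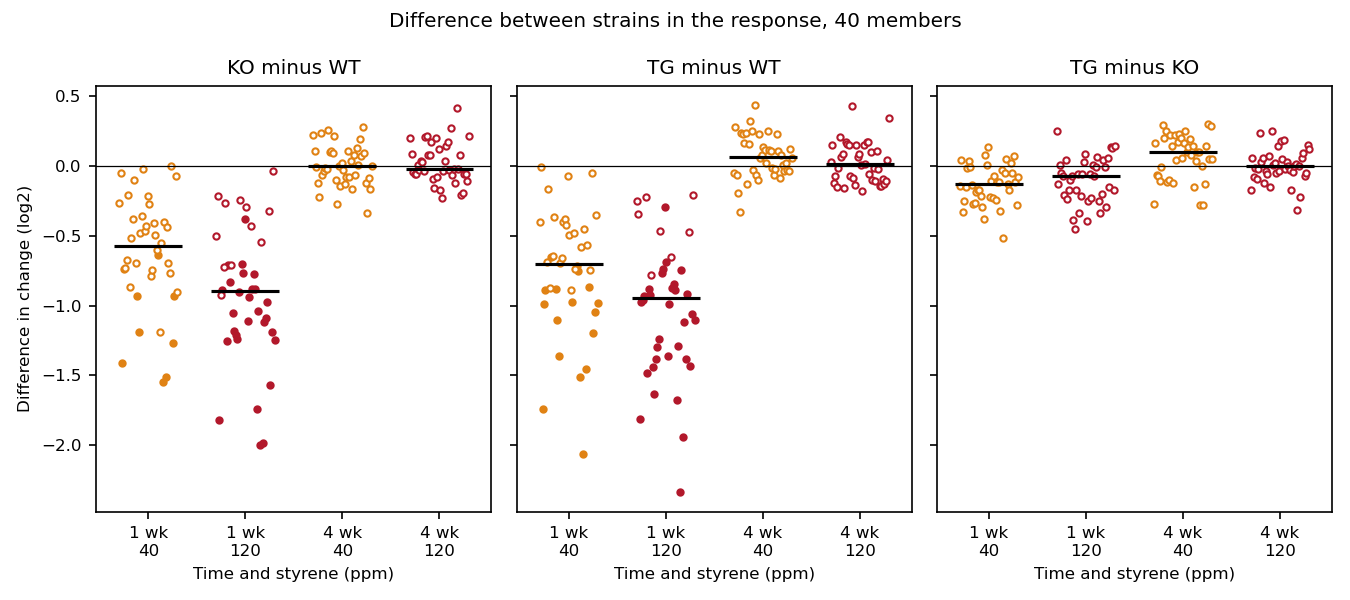
Difference between strains in the change from air (log2, points, 40 genes) by time and styrene concentration, with the median as a black line and filled points for an adjusted p under 0.05. The KO minus WT and TG minus WT medians lie between -0.57 and -0.95 at 1 week and near 0 at 4 weeks, and the TG minus KO medians lie near 0 throughout.

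KO and TG lungs were not told apart in these genes. The change in TG minus that in KO passed in 0 of the 40 genes at each concentration and time in limma (0 with an unadjusted p under 0.05, 0% of all genes), with medians of -0.13 and -0.07 at 1 week and 0.10 and 0.00 at 4 weeks. The largest differences were Tk1 at 40 ppm (-0.52) and Gins1 at 120 ppm (-0.45). The 95% intervals over the 40 genes reached as low as -1.27 and as high as 0.74 at 1 week, so the data leave room for sizeable differences in single genes.

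Without exposure no gene of the 40 passed between the 3 strains (0 passed in limma for KO minus WT, TG minus WT and TG minus KO, with 0, 3 and 0 at an unadjusted p under 0.05), against 0.275%, 0.287% and 0.135% of all genes. The medians were -0.00, -0.03 and -0.05, and the largest difference was Pole in TG minus WT (-0.28). Between the air groups of 4 and 1 weeks, averaged over the strains, 3 of the 40 differed, against 17.2% of all genes. Mcm4 was higher at 4 weeks by 0.21 (SE 0.07, adjusted p = 0.025), Ccne2 higher by 0.34 (SE 0.12, adjusted p = 0.030), and Rfc3 lower by -0.25 (SE 0.09, adjusted p = 0.031). That count was 0 without KO control animal 3 or TG control animal 5 of week 1, and 1 without WT control animal 1 of week 1 or TG control animal 1 of week 4.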

How the data were processed

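Whole lungs of 90 mice were profiled on 1 array each. The values deposited were log2 signals for each probe set, and RMA and Partek are named per the submitters' processing notes, with versions not given in the sources used here. Group, animal number, dose and week came from the labels. Of 45141 probe sets, 104 controls were left out, and the brightest probe set (mean over all arrays) of each single-symbol gene gave 17097 genes. Of the 40 genes, 24 had several probe sets, and for 4 these disagreed in sign in WT lungs at 120 ppm and 1 week. All 40 matched RefSeq (GRCm38.p6) through the Entrez identifier. No pair of arrays was identical (0), and the closest pair correlated at 0.997.

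A model of 18 group means was fitted to all 90 arrays with limma 3.58.1 in R 4.3.3 (72 residual degrees of freedom, empirical Bayes), with Benjamini-Hochberg adjustment over all genes in each of 32 comparisons. The script was tested on simulated data. The labels say biological replicates, and 5 animals per group limit the precision. No label ties the replicate numbers between groups, so they were not treated as pairs. The median correlation of deviations was 0.07 for equal numbers and -0.02 for others, which does not settle whether animals shared any handling.

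The genes, lists and tests were chosen with earlier results of these data known. Values in every animal are given for the genes with the largest passing WT change at 120 ppm and 1 week, up to a pair per role. From each other list up to 4 passing genes by size were named, or 3 by smallest p, and Cyp2f2, Mki67, Top2a, Cdkn1a and Pttg1 were allowed anywhere. Sequences were printed for up to a pair of genes with an E2F-type match and 1 without. The alternatives tried were a further quantile normalization, a filter that dropped genes with a mean under the 40th percentile, medians over a gene's probe sets, only the arrays compared, array weights, leaving out 4 arrays of low weight, the replicate number as a block, the poly-A control mean as a covariate, and each animal left out. Leaving out animal 3 at 120 ppm from the fit of the arrays compared was added after seeing the data.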

Additional observations from a re-analysis of the deposited data

Results flagged for a closer look

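In 4 of 66 groups of 5 animals an animal stood apart from the others by a gap of over 0.71 of the group's range, and chance flags about 1 in 20 groups. The mean of the 40 genes was 6.02 in TG control animal 5 of week 1, against 5.48 to 5.60 in the other 4, and 5.50 in TG animal 3 at 40 ppm and 4 weeks, against 5.65 to 5.71. TG control animal 5 had an array weight of 0.155 and the highest value of its group in 50.5% of all genes. WT control animal 2 of week 1 was low for Uhrf1 (4.70, others 5.04 to 5.13) and for Cdc6 (3.67, others 4.35 to 4.44).

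The response differed between strains by a test of the difference itself: at 1 week it was lower in KO than in WT lungs in 8 genes at 40 ppm and 28 at 120 ppm (1.05% and 1.76% of all genes), and for TG against WT in 17 and 32 (1.39% and 3.42%). A fit of only the arrays compared gave 0 for KO and 1 for TG at 120 ppm. It differed between times in WT lungs, lower at 4 weeks than at 1 week in 10 genes at 40 ppm and 21 at 120 ppm (0.503% and 0.749% of all genes), with 22 and 0 in a fit of only the arrays compared.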

How the results depend on the processing

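The counts of 0 in KO, TG and 4-week WT exposures stayed 0 under all settings run, while the mean of the genes minus control changed sign when an animal was left out in 5 of these 10 exposures (KO and TG at 120 ppm and TG at 40 ppm after 1 week, WT and KO at 40 ppm after 4 weeks). With dim genes left out, 25 of the 40 genes remained, and the counts were 18 and 22 in WT lungs at 40 and 120 ppm and 1 week, 3 and 15 for KO minus WT, 8 and 19 for TG minus WT, and 3 and 8 for 4 weeks minus 1 week; fewer genes were tested. In a fit of only the arrays compared, the counts were 0 for WT at 120 ppm, 14 and 0 for KO minus WT at 40 and 120 ppm, 1 for TG minus WT at 120 ppm, and 22 and 0 for 4 weeks minus 1 week. Array weights gave 18 for KO minus WT at 40 ppm and 23 and 33 for 4 weeks minus 1 week. Without the 4 arrays of low weight the latter were 18 and 33, and the air groups of 4 and 1 weeks differed in 0 genes. With the poly-A covariate KO minus WT at 40 ppm was 13. The cause of these shifts was not tested, and the shares of all genes called under these settings are not given here. With each animal left out in turn, counts ranged from 24 to 31 and 31 to 38 in WT lungs, 3 to 9 and 13 to 34 for KO minus WT, 10 to 18 and 23 to 37 for TG minus WT, 6 to 11 and 15 to 32 for 4 weeks minus 1 week, and 0 to 4 between air groups. The mean of the genes at WT 40 ppm minus control was 0.63 with dim genes left out and 0.65 with the median over probe sets, against 0.76, and that of TG at 40 ppm ranged from -0.037 to 0.10. With the median over probe sets, Brca1 changed by -0.078 in WT at 40 ppm, by 0.13 in KO minus WT, 0.023 in TG minus WT and 0.095 in 4 weeks minus 1 week at 40 ppm, and Mcm10 by -0.13 in WT at 120 ppm and 0.086 in 4 weeks minus 1 week. With the replicate number as a block the WT counts were 30 and 36 and the strain counts 8, 28, 18 and 33, although no label ties these numbers between groups.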
